A study of Caenorhabditis elegans with 2 samples.

Results

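The 8 genes described here let a Caenorhabditis elegans embryo count its X chromosomes and, from that count, set its sex and the output of its X chromosomes. They were chosen by name for that role and not by measured values, although earlier results of these data were known. They make up 8 of 19973 protein-coding genes on the nuclear chromosomes. ceh-39, sex-1, fox-1, xol-1, sdc-1 and sdc-2 lie on X, and sdc-3 and her-1 lie on V. ALY-1, an mRNA export adaptor of the Aly/REF family, was mapped on chromatin by ChIP-seq in 2 biological replicates of early embryos, which form a single group. All embryos had the genotype of the hermaphrodite strain OP502, with the allele unc-119(tm4063) on chromosome III and the transgene wgIs502, from which ALY-1 with a C-terminal GFP and FLAG tag is made. They were collected 0 hours after egg bleaching, and the sonicated chromatin was precipitated with an antibody against GFP. The files list peaks and hold no read counts, so read depth is unknown, and no precipitation from worms without the tag was analysed here. Whole embryos were used, so strong signal in few nuclei and weak signal in many cannot be told apart.

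In XX embryos a double dose of X signal elements, among them the homeodomain protein CEH-39, the nuclear hormone receptor SEX-1 and the RNA-binding protein FOX-1, keeps xol-1 off. XOL-1 is the switch for male fate in XO embryos. With xol-1 off, SDC-2, SDC-1 and SDC-3 bring the dosage compensation complex to both X chromosomes to lower their expression, and they also repress her-1, which encodes a secreted signal for male development.

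A gene's window ran from 1000 bp upstream of its annotated 5′ end to 500 bp past its 3′ end, on genome build ce11. A peak was assigned to a gene when its summit, the position of its highest signal, lay in that window. Peaks were ranked by the authors' signal value, with rank 1 the strongest, in a list of 30000 candidates called on both replicates together (the pooled list) and in a list of 30000 for each replicate. Candidate lists hold background as well as binding. The authors' set passing the irreproducible discovery rate (IDR) procedure, called thresholded here, has 881 peaks on ce11, which are the 881 strongest of the pooled list.

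The sequences under 6 of the summits are shown first, because they cover the strongest summits of the X signal elements and the main summits of sdc-2, sdc-3 and xol-1. Each has 151 bases centred on the summit, read 5′ to 3′ on the strand of the gene from the RefSeq genome of the same assembly. Capitals mark the 11 bases around the summit. Labels name the part of the gene that holds the summit, which is not always the whole window. The fox-1 window runs on into the next intron and the start of the next exon. The xol-1 window starts upstream of the gene and ends past the exon, in the intron that follows.

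ceh-39 upstream, chrX:1856320-1856470, minus strand: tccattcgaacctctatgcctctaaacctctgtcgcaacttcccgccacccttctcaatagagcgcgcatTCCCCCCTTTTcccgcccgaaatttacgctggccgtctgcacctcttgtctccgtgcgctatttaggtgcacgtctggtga

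sex-1 intron 2, chrX:10204364-10204514, minus strand: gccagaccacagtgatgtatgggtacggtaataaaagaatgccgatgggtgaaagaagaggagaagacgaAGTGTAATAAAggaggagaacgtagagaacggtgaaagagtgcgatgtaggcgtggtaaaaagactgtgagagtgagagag

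fox-1 exon 7, chrX:2446198-2446348, minus strand: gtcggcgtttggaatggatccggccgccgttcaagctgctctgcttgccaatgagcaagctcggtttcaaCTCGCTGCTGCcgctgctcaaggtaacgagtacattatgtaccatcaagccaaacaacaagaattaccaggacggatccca

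sdc-2 exon 9, chrX:11527184-11527334, plus strand: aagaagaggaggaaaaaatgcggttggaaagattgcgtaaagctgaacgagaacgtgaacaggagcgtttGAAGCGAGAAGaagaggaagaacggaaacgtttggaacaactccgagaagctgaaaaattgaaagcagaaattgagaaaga

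sdc-3 exon 7, chrV:15043900-15044050, minus strand: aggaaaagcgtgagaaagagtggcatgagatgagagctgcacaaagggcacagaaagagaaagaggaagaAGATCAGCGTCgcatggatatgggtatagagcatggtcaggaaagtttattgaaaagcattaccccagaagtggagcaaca

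xol-1 exon 1, chrX:8041261-8041411, plus strand: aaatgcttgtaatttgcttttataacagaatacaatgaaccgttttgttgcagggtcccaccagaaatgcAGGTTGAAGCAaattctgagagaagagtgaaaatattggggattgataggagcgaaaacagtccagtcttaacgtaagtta

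Every member had at least 1 candidate summit in the pooled list, 35 summits in all, but only ceh-39 had a thresholded summit. Of all protein-coding genes, 60.1% had a candidate summit in the same window and 4.03% a thresholded one. On chromosome X the shares were 63.9% and 6.37%. Longer windows catch more summits. Among protein-coding genes with a window of 3 to 6 kb, the class of ceh-39, sex-1 and xol-1, 60.0% had a candidate and 3.24% a thresholded summit. The shares were 83.4% and 7.35% for windows of 6 to 12 kb, the class of sdc-1, sdc-3 and her-1, and 93.9% and 11.7% for windows over 12 kb, the class of fox-1 and sdc-2. The candidate count of 8 of 8 is therefore near what genes of these lengths show. A single thresholded gene among 8 is too small a count to set apart from these shares.

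The members held 0.516 candidate summits per kb of window, against 0.329 over all protein-coding genes and 0.315 over those on X. By window length it was 0.309 per kb for 3 to 6 kb, 0.352 for 6 to 12 kb and 0.356 for over 12 kb. Overlapping candidates are counted separately in all of these densities, and the member summits lay in 29 separate regions. The density was uneven, from 0.153 per kb at her-1 and 0.189 per kb at sdc-3 to 0.894 per kb at sex-1. Between these lay fox-1 with 0.737 per kb, sdc-2 with 0.653, ceh-39 with 0.526, sdc-1 with 0.484 and xol-1 with 0.218. The best pooled rank had a median of 5123.5 over the members, against 9460 over all protein-coding genes with a candidate summit. Those genes are mostly shorter than the members, and best rank goes with window length. The median was 10470 for windows of 3 to 6 kb, 7302 for 6 to 12 kb and 4408 for over 12 kb, and 5 of the 8 members fall in the longer classes, so the unmatched gap overstates the difference. Ranked by their best summit, the order was ceh-39 (524), fox-1 (1069), sex-1 (1345), sdc-2 (3513), sdc-3 (6734), xol-1 (9020), sdc-1 (11184) and her-1 (22945). The first 4 of these lay within the strongest 5000 candidates, as did 18.4% of all protein-coding genes, 22.4% of those on X and 49.8% of those with a window over 12 kb. The last share applies to fox-1 and sdc-2 only. It was not computed for the shorter classes, to which ceh-39, sex-1 and the remaining members belong.

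**Figure D1:**
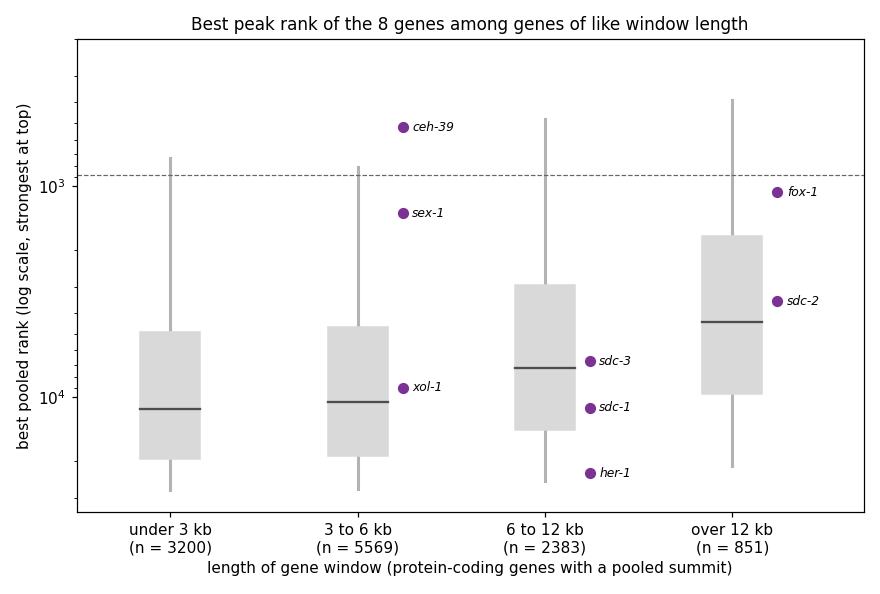
Best pooled rank of each of the 8 genes (purple points, log scale, strongest at top) beside protein-coding genes of the same class of window length that had a pooled summit (grey box, middle 50%; line, median; whisker, 5th to 95th percentile). The dashed line marks rank 881, and only ceh-39, at 524, lies above it.

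ceh-39 encodes a homeodomain protein of the ONECUT class that acts as an X signal element, and it lies on the minus strand at chrX:1853874-1856172. It had 2 candidate summits, which flanked the gene. The upstream peak, chrX:1856153-1856636, had a signal value of 99.6 and a −log10 q of 2.54, with its summit 223 bp before the annotated 5′ end. The downstream peak, chrX:1853555-1854038, had a signal value of 83.9, a −log10 q of 2.32 and rank 932, outside the thresholded set, whose weakest peak had a signal value of 85.5, as did the strongest peak left out of it.

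The replicates ordered these 2 peaks differently. The upstream peak ranked 3426 in replicate 1 and 320 in replicate 2. The downstream peak ranked 566 in replicate 1 and 3911 in replicate 2. Each replicate thus placed 1 ceh-39 peak among its own 881 strongest, but at opposite ends of the gene. Of all 881 thresholded peaks, 6.58% ranked beyond 3000 in at least 1 replicate, as the ceh-39 upstream peak did.

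Both ceh-39 summits had neighbours. The upstream summit lay 78 bp from T26C11.10, annotated as a non-coding RNA gene, and in the window of no other protein-coding gene. The downstream summit lay 77 bp past the 3′ end of ceh-39 and also 52 bp inside T26C11.9, the next protein-coding gene on the same strand, in an untranslated part of an exon. Which gene this signal belongs to cannot be told apart from the peak lists. Of the 9284 protein-coding genes in its window class, 2.08% had a summit ranked as high as that of ceh-39.

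sex-1 encodes a nuclear hormone receptor that represses xol-1, and it lies on the minus strand at chrX:10201329-10205421. It had 5 candidate summits in 4 separate regions, and 3.09% of genes of its window class had as many. The strongest peak, chrX:10204197-10204680, had a signal value of 75.4 and a −log10 q of 2.11, with its summit in intron 2, 982 bp from the 5′ end. It ranked 617 in replicate 1 and 2107 in replicate 2, and the replicate summits lay 1 and 72 bp from the pooled one. An overlapping candidate at rank 15055 shared these replicate peaks. The promoter side of sex-1 carried a weaker summit 856 bp upstream, ranked 5340 in the pooled list.

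The remaining sex-1 summits differed more between replicates. The summit in the untranslated part of exon 8, pooled rank 8052, overlapped a peak ranked 1298 in replicate 1 and 12895 in replicate 2. The summit in intron 3, pooled rank 17549, overlapped a peak ranked 3658 in replicate 2 and none in replicate 1. In the whole window class of sex-1, 4.83% of genes had a best summit as strong as its own.

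fox-1 encodes an RNA-binding protein of the RBFOX family that acts on xol-1 pre-mRNA, and it is the longest member, at chrX:2445117-2459893 on the minus strand with 6 annotated transcripts. It had 12 candidate summits in 9 separate regions. Of these, 8 lay in introns, 2 in coding exons, 1 in an untranslated part of an exon and 1 downstream. Among the 906 genes with a window over 12 kb, 14.9% had as many summits and 14.9% had a best summit as strong, so the count is not unusual for its length. The strongest peak, chrX:2446031-2446514, had a signal value of 80.5 and a −log10 q of 2.22, with its summit in coding exon 7 of 8, 13620 bp from the 5′ end. It ranked 10154 in replicate 1 and 703 in replicate 2, so its place near the threshold rested on replicate 2.

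Other fox-1 summits also stood higher in a single replicate. The intron 1 summit ranked 3167 in the pooled list overlapped a peak ranked 10129 in replicate 1, 322 bp from it, and one ranked 954 in replicate 2. The intron 1 summit ranked 5687 overlapped peaks ranked 2652 in replicate 1 and 6552 in replicate 2. Near the coding part of the gene, neighbouring summits in exon 4 (rank 3489) and intron 3 (rank 4236) shared a replicate 2 peak ranked 2403 and a replicate 1 peak ranked 3743. Non-coding RNA genes T07D1.8 and T07D1.9 lay within 250 bp of the exon 4 summit, and the intron 3 summit lay inside T07D1.8. A summit ranked 8244 lay 24 bp inside the 5′ end of a shorter fox-1 transcript.

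**Figure D2:**
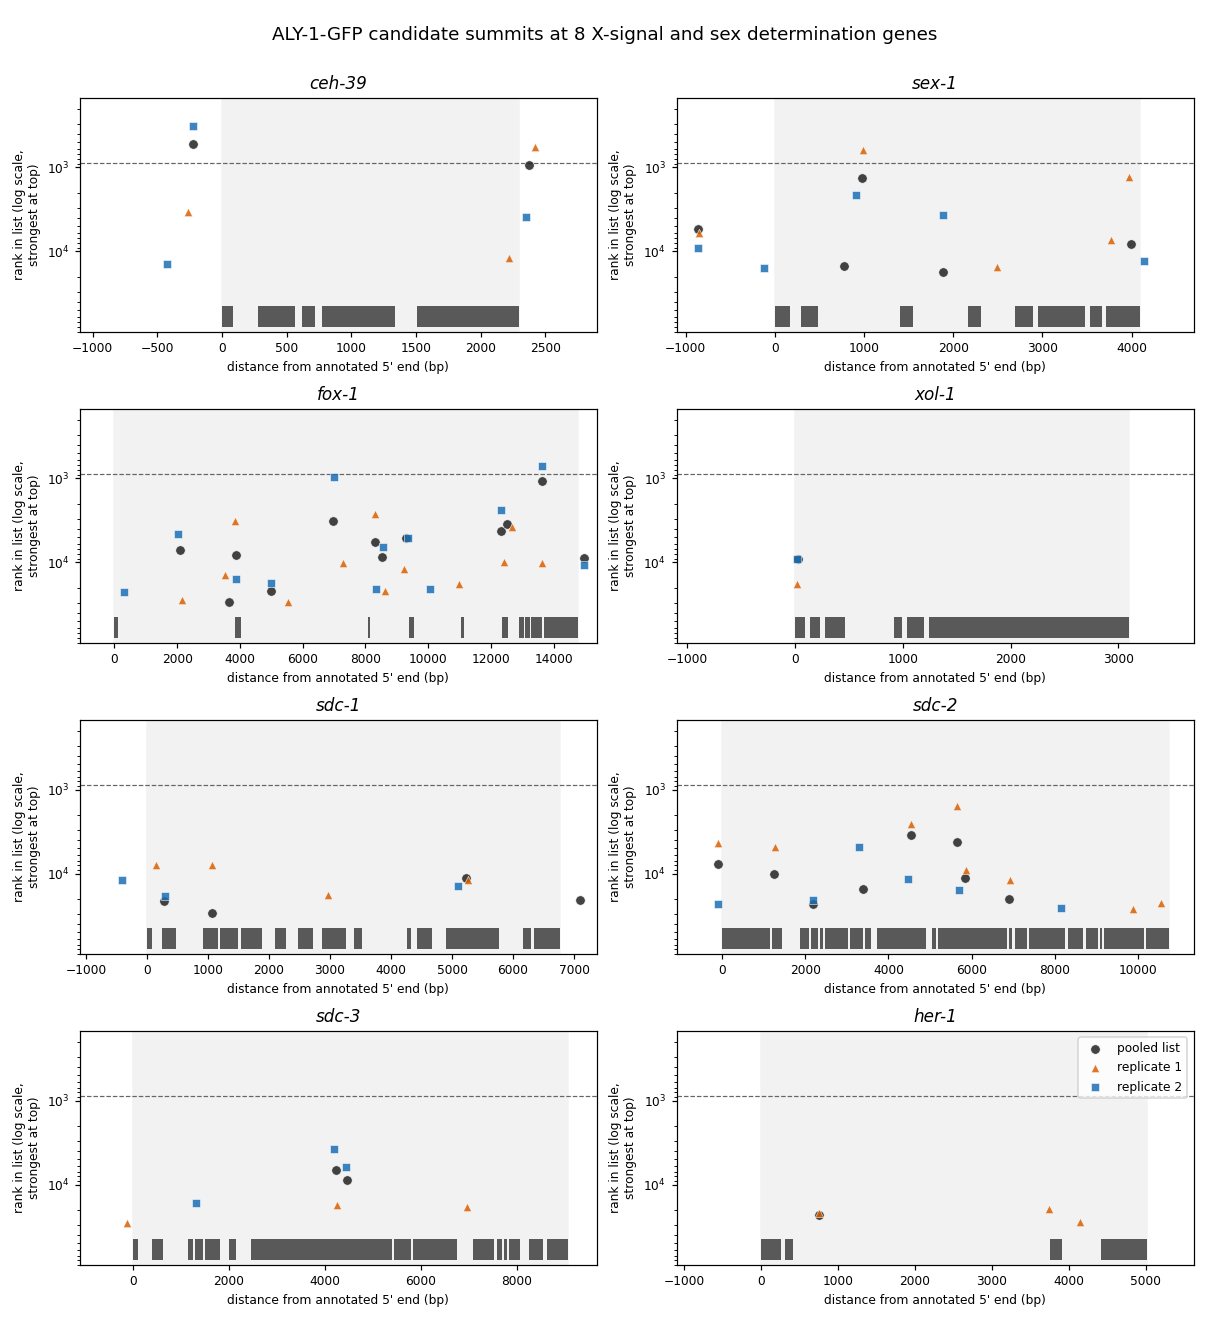
Candidate summits at each of the 8 genes by distance from the annotated 5′ end in bp (grey field, gene; dark bars, exons of all transcripts) and by rank on a log scale with the strongest at the top, for the pooled list (circles), replicate 1 (triangles) and replicate 2 (squares). The dashed line marks rank 881, which the pooled circles pass at ceh-39 alone, while single replicates also pass it at sex-1 and fox-1.

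xol-1, the switch that these elements act on, lies on the plus strand at chrX:8041313-8044409. It had a single candidate summit, at rank 9020 with a signal value of 41.3 and a −log10 q of 0.411, in the coding part of exon 1, 23 bp from the annotated 5′ end. The replicates placed it alike, with summits 3 and 7 bp upstream of the pooled one. The peak ranked 18039 in replicate 1 and 8998 in replicate 2, where it was the single xol-1 summit of each list. In its window class, 26.7% of genes had a summit as strong. A candidate this far down the list can be background.

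FOX-1 binds the words GCAUG and GCACG in xol-1 pre-mRNA, so their DNA forms were searched on the plus strand of xol-1. GCATG occurred 4 times and GCACG 6 times, and 5 of these 10 lay in intron 6, the intron where FOX-1 acts, which another annotated transcript keeps as part of an exon. All exon and intron numbers are those of the annotated transcript with the longest span. The nearest word in intron 6 lay 1718 bp from the xol-1 summit. No list had a summit in intron 6, which says only that no peak among the candidates was placed there.

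The same words were counted on both strands in 151 bp around the summits of all members. GCATG was present in 5 of 35 windows, against 14.2% of all 30000 candidate windows and 18.2% of thresholded ones. GCACG was present in 3 of 35, against 13.5% and 24.9%. The richest window was that of the fox-1 intron 3 summit, chrX:2447509-2447659 on the minus strand, shown with the words and their reverse complements in capitals. A word and its reverse complement overlap in the run of 6 capitals. The last bases of this window lie in exon 4.

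fox-1 intron 3: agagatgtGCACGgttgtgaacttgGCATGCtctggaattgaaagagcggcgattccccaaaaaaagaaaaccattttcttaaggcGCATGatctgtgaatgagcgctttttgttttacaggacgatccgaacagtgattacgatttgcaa

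The zinc finger protein SDC-1, SDC-2 and the zinc finger protein SDC-3 act together in XX embryos, and their genes had no thresholded summit. sdc-2, on the plus strand at chrX:11522707-11533450, encodes the protein that leads the others to X. It had 8 candidate summits, 7 of them in coding exons and 1 upstream, and 72.6% of its window was coding. The strongest, chrX:11527017-11527500, had a signal value of 57.1 and a −log10 q of 1.04, with its summit in exon 9 of 19. It ranked 2573 in replicate 1 and 11655 in replicate 2. The second, in exon 11 at pooled rank 4162, ranked 1574 in replicate 1 and 15603 in replicate 2. Of genes with a window over 12 kb, 41.3% had a best summit as strong as that of sdc-2.

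Most sdc-2 summits were stronger in replicate 1. The upstream summit, 113 bp before the 5′ end at pooled rank 7734, ranked 4362 in replicate 1 and 22902 in replicate 2. The summits in exon 2 and exon 12, at pooled ranks 10190 and 20025, overlapped a peak of replicate 1 and none of replicate 2. The summits in exon 4 and exon 7, at pooled ranks 23133 and 15344, overlapped a peak of replicate 2 and none of replicate 1. The exon 7 summit lay inside anr-16, annotated as an antisense RNA gene, and the exon 4 summit 101 bp from it.

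sdc-1, on the plus strand at chrX:16275763-16282534, had 4 candidate summits, at pooled ranks 11184 in exon 12, 20939 downstream, 21313 in exon 2 and 29624 in exon 3. The exon 12 summit overlapped peaks ranked 11971 in replicate 1 and 14162 in replicate 2. The exon 2 summit overlapped peaks ranked 7900 in replicate 1 and 18400 in replicate 2. The exon 3 summit overlapped a peak ranked 7921 in replicate 1 and none in replicate 2. The downstream summit overlapped no peak of either replicate and lay in a coding exon of the neighbouring gene F52E10.2. With 54.6% of its window class as strong or stronger, sdc-1 was close to the middle of its class.

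sdc-3, on the minus strand at chrV:15039148-15048207, had 2 overlapping candidate peaks in coding exon 7 of 15, at pooled ranks 6734 and 8767 with signal values of 46.1 and 41.8. Replicate 2 placed 2 summits in that exon, at ranks 3811 and 6113, and replicate 1 placed 1 there, at rank 17427. Each replicate also had summits elsewhere in the sdc-3 window, which overlapped no pooled peak. In its window class 39.1% of genes had a summit as strong.

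her-1, on the plus strand at chrV:9697015-9702035, encodes the secreted male signal that the SDC proteins repress in XX embryos. It had the weakest best summit of the 8 genes, at rank 22945 with a signal value of 26.7 and a −log10 q of 0.106, in intron 2, 746 bp from the 5′ end. Replicate 1 listed it at rank 21983, with a best her-1 summit elsewhere at rank 19416, and replicate 2 had no summit in the her-1 window. In its window class 76.6% of genes had a summit as strong.

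Over all 35 member summits, 15 lay in coding exons, 12 in introns, 3 upstream, 3 downstream and 2 in untranslated parts of exons. Over all pairs of a protein-coding window and a candidate summit, 29.9% were in coding exons, nearly the same share in introns, 23.7% upstream, 10.4% downstream and 6.02% in untranslated parts. fox-1 held 8 of the 12 intronic summits and sdc-2 held 7 of the 15 in coding exons. Non-coding RNA genes lay within 250 bp of 6 of the 35 summits (17.1%), at ceh-39, fox-1 and sdc-2. With pseudogenes left out of the annotation, the same held for 11.8% of all pooled summits, 20.3% of those on X and 46.2% of thresholded ones, so the members are near other candidates on X.

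The summits also differed in base composition. In the 151 bp windows, the median GC content was 42.4% for the members and 42.4% for all candidates, with values from 20.5% at the upstream summit of sdc-2 to 57.0% at exon 4 of fox-1. The ceh-39 upstream window had 55.6%. The strongest summits of sdc-2, sex-1 and sdc-3 lay in runs of purines, as the printed sequences show. Adenine and guanine made up 76.2% of the gene strand at sdc-2 exon 9, 75.5% at sex-1 intron 2 and 72.2% at sdc-3 exon 7. Windows with a purine or pyrimidine share as high as these on either strand made up 0.7%, 0.887% and 2.24% of all candidate windows. These are the most one-sided of the member windows. The larger of the purine and pyrimidine shares had a median of 58.3% over member windows, against 55.6% over all. At their best summits, the other members had 60.9% purines (sdc-1), 58.9% (xol-1), 51.7% (her-1), 49.7% (fox-1) and 33.8% (ceh-39). The purine share was chosen after the sequences were seen, and its part in the signal was not tested.

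Replicate overlap was wide, but the replicates often gave a member peak different ranks. Of the 35 member peaks, 25 (71.4%) overlapped a candidate peak of both replicates by at least 1 bp, against 60.8% of all pooled peaks. A further 4 overlapped replicate 1 alone, 5 replicate 2 alone and 1 neither. The pooled list was called on the reads of both replicates, so this overlap is not independent support. None of the 35 ranked within the strongest 881 of both replicates, and 5 did so in a single replicate. Of all pooled peaks, 2.38% ranked within 881 in both and 3.97% in a single replicate. A count of 0 in both is thus ordinary for 35 candidates. The 5 in a single replicate (14.3%) are not separate, because the overlapping sex-1 candidates at pooled ranks 1345 and 15055 shared the replicate 1 peak ranked 617. This share is above 3.97%, but the count is small and the difference was not tested. Of the 881 thresholded peaks, a set to which only 1 member peak belongs, 54.4% ranked within 881 in both. Among the 25 member peaks found in both, the weaker rank was a median of 4.57 times the stronger. It was 1.96 times over all pooled peaks and 1.94 times over thresholded ones, but neither set is a like comparison. Each replicate list ends at a fixed rank, which caps the ratio for peaks far down it. The thresholded set was chosen by the IDR procedure, which favours peaks ranked alike in both replicates. Member peaks were not compared with other peaks of like rank, so whether their ratio is unusual was not tested. Neighbouring member peaks can share a replicate peak, so these 25 are not separate measurements. The peak ranked higher in replicate 1 for 14 of them and in replicate 2 for 11.

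**Figure D3:**
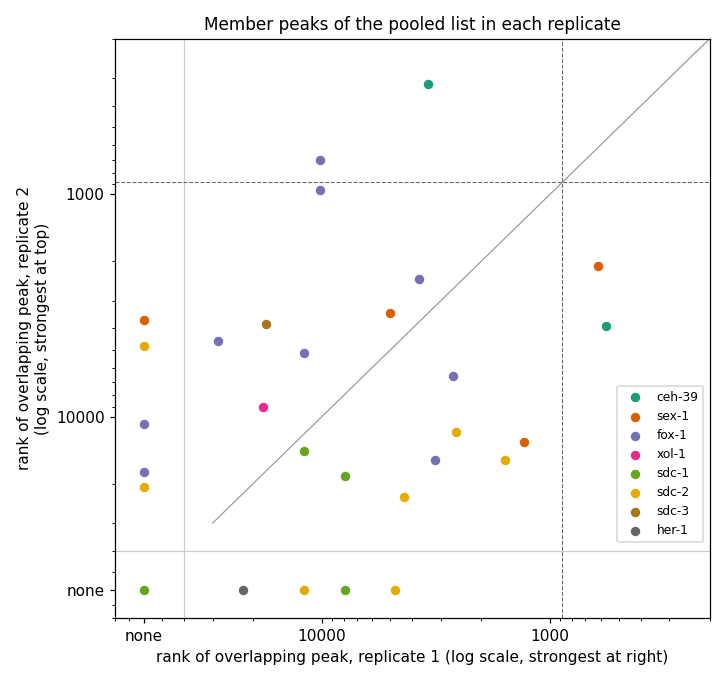
Rank of the best overlapping peak in replicate 1 (horizontal) and replicate 2 (vertical) for each of the 35 pooled peaks at the 8 genes, on log scales with the strongest at right and top. Peaks that share both replicate peaks coincide, dashed lines mark rank 881, "none" marks no overlapping peak, and no point lies in the upper right field where both replicates would rank within 881.

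Each replicate alone also had summits in the member windows that the pooled list lacked. Replicate 1 had 39 summits there, of which 10 overlapped no pooled peak, and those ranked between 15280 and 29659. Replicate 2 had 33, of which 6 overlapped none, at ranks 11986 to 25925. All of these ranks lie well below the strongest candidates.

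Other genes of sex determination and dosage compensation were set beside the members, as 26 genes in 4 lists by role. Thresholded summits were found at 3 of the 26, against 4.03% of all protein-coding genes, and candidate summits at 22 of 26, against 60.1%. Many of these genes are long. With a window over 12 kb, 2 of 5 had a thresholded summit, against 11.7% of that class, and 5 of 5 a candidate, against 93.9%. With a window of 6 to 12 kb, 1 of 10 had a thresholded summit, against 7.35%, and 9 of 10 a candidate, against 83.4%. For windows of 3 to 6 kb these were 0 of 7, against 3.24%, and 7 of 7, against 60.0%. For windows under 3 kb they were 0 of 4, against 187 of 6924 genes, and 1 of 4, against 3200 of 6924. Over the 22 genes with a candidate summit, the median best rank was 6341.5. The dosage compensation complex, the condensin-like machine that the SDC proteins bring to X, had 2 of 7 genes with a thresholded summit. The autosomal signal elements, which oppose the X signal at xol-1, had 1 of 2. None of 13 downstream sex determination genes and none of 4 targets of TRA-1 had one.

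The strongest of these was mix-1, which encodes an SMC subunit shared by condensins, at rank 30 with a signal value of 295 (chrII:10840148-10840383). Its summit lay in intron 13 of 15 exons, within 250 bp of the small nucleolar RNA gene M106.6, and it ranked 42 in replicate 1 and 22 in replicate 2. sea-2, which encodes a zinc finger protein of the autosomal signal, had its best peak at rank 526 in coding exon 9 of 14, ranked 461 in replicate 1 and 792 in replicate 2. dpy-27, which encodes the SMC subunit specific to dosage compensation, had a peak at rank 564 with its summit 697 bp upstream, near the non-coding RNA gene R13G10.5, ranked 466 in replicate 1 and 2339 in replicate 2. The peaks of mix-1 and sea-2 ranked within 881 in both replicates, and that of dpy-27 in replicate 1.

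Just outside the thresholded set were tra-1, the terminal regulator of sexual fate, at rank 1015 in intron 4, and laf-1, an RNA helicase gene, at rank 1121 in coding exon 1. dpy-21, which encodes a histone demethylase of the complex, followed at rank 1662 in coding exon 6. No candidate summit of the pooled list was found for tra-3, fog-2, fog-3 or egl-1.

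**Figure D4:**
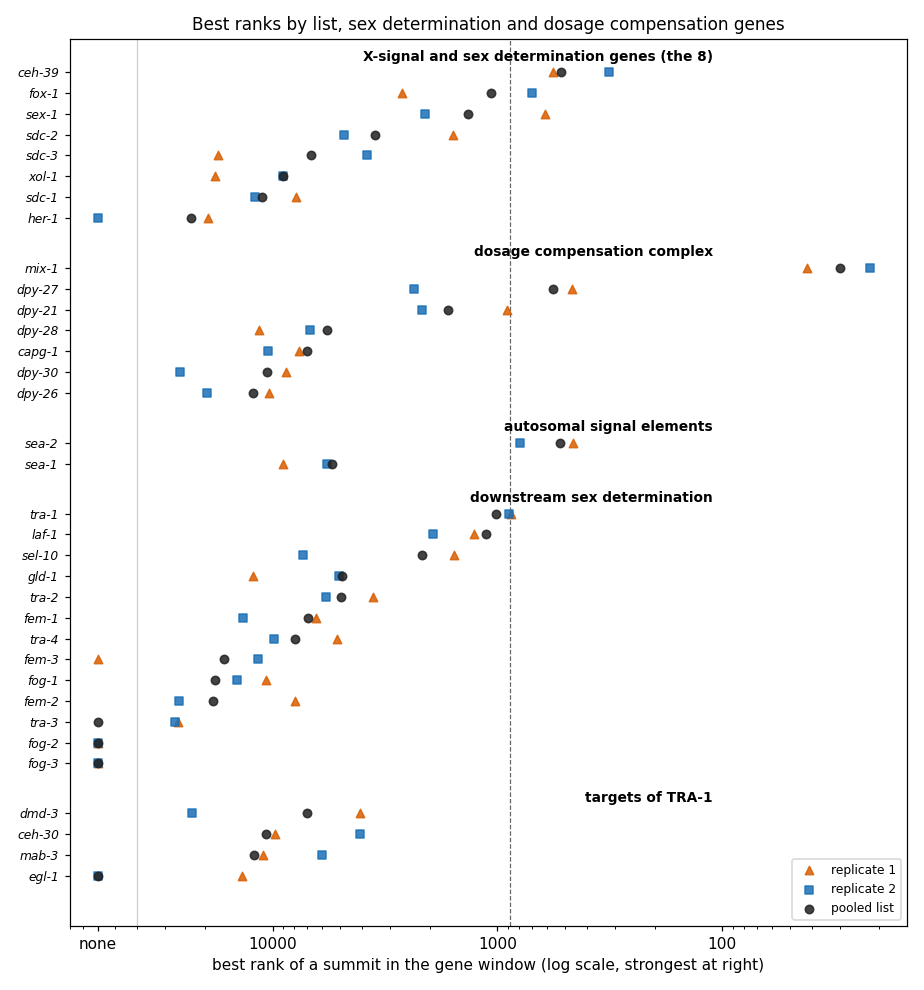
Best rank of a summit in the gene window (log scale, strongest at right) for the 8 genes and for 26 other genes of the pathway in 4 lists, in the pooled list (circles) and each replicate (triangles, replicate 1; squares, replicate 2). The dashed line marks rank 881, and mix-1 stands far to the right at 30, while her-1 is the weakest of the 8.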

How the data were processed

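ALY-1-GFP ChIP-seq of early embryos was deposited as peak lists on ce10 and ce11, of which the ce11 lists were used. Per the labels and listings deposited with each sample, replicate and pooled candidate lists were made as input for IDR with 1 shared control alignment, and the thresholded list is the optimal IDR set. The aligner is, like the peak caller and the IDR cutoff, not given in the sources used here, and depth is unknown. Each signal value is a score from the authors' peak caller, used to rank and describe peaks within a list, and the deposited q-values are on a −log10 scale. Both are the authors' values.

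Gene positions came from Ensembl release 115 (WBcel235, the coordinates of ce11). The gene sea-3 was not matched and was not used here. Summits were assigned by window, and features were taken from the member's transcripts, with exon and intron numbers from the transcript of longest span. Counting was tested on simulated data. No test was made, because the 2 replicates form 1 group. The 8 genes, the other lists and the window classes were chosen with earlier results of these data known. The genes named were the members, other pathway genes with a thresholded summit, and genes whose window or, for RNA genes, 250 bp vicinity held a member summit. tra-1, laf-1, dpy-21 and the genes without a summit, as well as the motif and purine counts, were chosen after their values were seen. Alternatives were other windows, thresholds and overlap rules, and each replicate alone. Python 3.11.15, numpy 2.4.6, pandas 2.3.3 and matplotlib 3.10.9 were used.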

Additional observations from a re-analysis of the deposited data

How the results depend on the processing

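The count of 1 member with a thresholded summit (ceh-39) was the same in a narrower window (from 500 bp before to 250 bp after the gene), in a promoter window or for any overlap of the peak. It was 0 within gene bodies and for the stronger 440 peaks, 3 for the strongest 2 times as many and 4 for the strongest 5000. Of all protein-coding genes, 18.4% had a summit within the strongest 5000. The shares over all genes were not computed for the other alternative settings. The counts at those settings therefore show only how far each setting moved them. In the 881 strongest peaks of each replicate alone it was 2, ceh-39 and sex-1 in replicate 1 and ceh-39 and fox-1 in replicate 2. The promoter window left 4 members with 4 candidate summits. Of the 25 member summits overlapped in both replicates, 15 had both replicate summits within 100 bp, and 7 remained with the strongest 5000 peaks of each replicate. The median best rank was 6734 within gene bodies, over 7 members without ceh-39, and 6537 in promoter windows, over 4 members. It was 5276 in replicate 1, over 8 members, and 3811 in replicate 2, over 7 members without her-1. These medians cover different members, so they are not a like comparison. The other pathway genes with a thresholded summit numbered 1 in promoter windows and for the stronger 440 peaks, and 6 for the strongest 2 times as many. For the strongest 5000 they numbered 9 of 26, against the 18.4% of all protein-coding genes, and many of these genes are long. The cause of these differences was not tested beyond what each setting removes or adds. No paired analysis was possible because there is a single group. Depth is unknown and limits what can be said of low ranks.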
